A study of Homo sapiens with 2 samples.

Results

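The genes described here encode Janus kinases (JAK1, JAK2, JAK3 and TYK2) and the STAT transcription factors STAT2, STAT3, STAT5A, STAT5B and STAT6, in all 9 genes, taken by symbol. Of the 9 genes, 8 had a value among the 11619 genes listed in the study. JAK3, which pairs with the common gamma chain of the interleukin-2 receptor family, was not analysed here, nor were other STAT genes. All values come from NB4, a human cell line from acute promyelocytic leukemia (APL) that carries the PML/RARα fusion. One library (sh-CRNDE) came from cells given a lentiviral short hairpin RNA (shRNA) against the long non-coding RNA CRNDE. The other (sh-Control) came from cells given a lentiviral shRNA that targets no gene, and both were taken on day 3 of infection. Both groups therefore share the cell line, the fusion and the exposure to virus. Each group was 1 library, so no difference below could be set against replicate spread, no p-value is given, and which CRNDE shRNA the sequenced cells carried is not given in the sources used here.

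A cytokine or interferon brings the chains of its receptor together, and the JAK kinases bound to their tails then phosphorylate the receptor and the STAT proteins that dock on it. Phosphorylated STATs pair, enter the nucleus and bind DNA, mostly at elements with the letters TTCNNNGAA, and their targets include the SOCS and CISH genes, whose products shut the pathway down. In myeloid progenitors the receptors for GM-CSF and interleukin-3 act through JAK2 and STAT5, the receptor for G-CSF through JAK1, JAK2 and STAT3, and type I interferon through TYK2, JAK1 and STAT2. STAT5B also has a link to APL itself, since in rare variant cases it, and not PML, is the partner fused to RARA. The comparison asks how the messenger RNAs of this pathway stood after CRNDE was lowered.

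The pair that moved apart, STAT5A and STAT5B, are close copies, and their sequences are shown first because they bear on how well reads of one can be told from reads of the other. In GRCh38, STAT5B spans bases 42199176 to 42288633 of chromosome 17 on its minus strand and STAT5A lies on the plus strand, from 42287547 to 42311943, with STAT3 next to it from 42313324 to 42388540. The canonical transcripts have 19 exons each. Their coding sequences are 2385 bases in STAT5A and 2364 bases in STAT5B, and 88.9% of the 2348 bases that align are identical. The first 60 coding bases hold 15 differences, marked by capitals in each line, 5′ to 3′ on the coding strand:
STAT5A: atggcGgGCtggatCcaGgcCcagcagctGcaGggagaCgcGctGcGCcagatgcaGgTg
STAT5B: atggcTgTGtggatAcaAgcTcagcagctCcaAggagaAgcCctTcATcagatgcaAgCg

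Further in, the difference vanishes. From coding base 564 to 992 the genes share an unbroken run of 429 identical bases, from exon 6 to exon 9 (chr17:42299764-42301277 on the plus strand in STAT5A and chr17:42218328-42219829 on the minus strand in STAT5B). The lines below show the way into this run, coding bases 524 to 583, with the last differences before it in capitals, and then the way out of it, coding bases 973 to 1032:
STAT5A into the run: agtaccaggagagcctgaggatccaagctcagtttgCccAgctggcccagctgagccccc
STAT5B into the run: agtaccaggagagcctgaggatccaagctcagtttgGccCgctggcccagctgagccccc
STAT5A out of the run: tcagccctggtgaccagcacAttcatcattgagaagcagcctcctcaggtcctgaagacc
STAT5B out of the run: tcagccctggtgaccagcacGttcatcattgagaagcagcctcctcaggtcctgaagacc

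The coding sequences end differently. The last 60 coding bases, which encode the end of the transactivation domain and the stop codon, are printed without capitals because differences were not marked in them:
STAT5A end: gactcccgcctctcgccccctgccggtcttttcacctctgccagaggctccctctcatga
STAT5B end: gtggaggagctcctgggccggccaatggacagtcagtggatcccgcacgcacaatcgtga

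Read length is not given in the sources used here, so ambiguity was counted over windows of several lengths. Of the 50-base windows of the canonical STAT5A transcript, 15.1% also occur in a STAT5B transcript, and 10.1% of those of STAT5B occur in STAT5A. At 100 bases the shares were 10.2% and 7.45%. Most windows of either transcript were thus found in 1 gene only. At 100 bases the other listed members, JAK1, JAK2, TYK2, STAT2, STAT3 and STAT6, shared 0% of their windows with any gene. At the heads of STAT5A and STAT5B, 415 exonic bases of the annotated transcripts overlap on opposite strands. The TruSeq RNA kit used does not record strand, so reads from these bases cannot be assigned to one gene by strand.

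Before the members, the targeted gene was checked. CRNDE was at 5.92 FPKM with sh-Control and 1.85 with sh-CRNDE. FPKM is the number of fragments assigned to a gene, scaled by its transcript length and by the library total, so levels of different genes can be compared within a library. The change of a gene is the log2(FPKM + 1) value with sh-CRNDE minus the one with sh-Control, a scale that understates the change of low genes, and for CRNDE it was -1.28. The depth of either library is unknown because no counts are kept in FPKM, so counting error has no interval here. Across all genes the change had a median of -0.01 and quartiles of -0.26 and 0.23. Of 8 promyelocytic marker genes, 7 were listed, 5 of them lower and 1 higher past 1.5-fold, with a summed level of 2145 FPKM with sh-Control and 969 with sh-CRNDE. The higher gene was CEBPE, at 0.748 FPKM with sh-Control and 8.75 with sh-CRNDE (change 2.48). MPO (1135 and 738 FPKM) and SRGN (740 and 146 FPKM) made up most of both sums. Of 15 markers of T, B, erythroid, monocytic and epithelial cells, 5 were listed, with sums of 8.54 and 7.15 FPKM, the highest was EPCAM at 4.82 FPKM, and none of the listed was at 0. The part of these shifts in the results below was not tested.

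Of the 8 listed members, 3 were past 1.5-fold (0.585 on the log2 scale) and 5 were not. STAT5B was higher in sh-CRNDE, and JAK1 and STAT5A were lower. Over all listed genes 17.2% were past the threshold, 8.38% higher and 8.83% lower, and with a floor of 1 FPKM in each library, which all 8 members passed, 14.1% were. The members' share, 37.5%, rests on 3 genes and no replicate. The median change of the members was -0.16, with 3 of them higher and 5 lower in sh-CRNDE.

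Of the kinases, TYK2, which serves the type I interferon and interleukin-12 receptors, had the highest level of all members in both libraries. It was at 26.4 FPKM with sh-Control and 22.2 with sh-CRNDE (change -0.24). The level in sh-Control was above that of 91.3% of all listed genes. TYK2 lies on the minus strand of chromosome 19 (10350533 to 10380608).

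JAK1, the partner of TYK2 at the interferon receptor and the main kinase of the gp130 receptors, stood second in sh-Control at 14.4 FPKM and fell to 7.67 FPKM in sh-CRNDE, where it was the fourth of the members. Its change was -0.83, and only 4.63% of all genes had a lower one. The gene lies on chromosome 1 from 64833223 to 65067754, minus strand, with 25 exons in the canonical transcript.

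JAK2, the kinase of the receptors for erythropoietin, thrombopoietin, GM-CSF and interleukin-3, was low, at 1.62 FPKM with sh-Control and 2.51 with sh-CRNDE. Its change was 0.42, under the threshold, while the plain ratio of the FPKM values was 1.54, and with a pseudocount of 0.1 FPKM the change was 0.60 and past it. When the median change of genes with like GC content was subtracted, the change was 0.22. JAK2 lies on the plus strand of chromosome 9 (4984390 to 5129948). Summed over the 3 listed kinases, the level was 42.4 FPKM with sh-Control and 32.3 with sh-CRNDE, so JAK1 and TYK2 made up most of the kinase message in either library.

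Among the STATs, STAT6 (the STAT of interleukin-4 and interleukin-13) and STAT3 (the STAT of gp130 and G-CSF receptors) had the highest levels in sh-Control. STAT6 was at 10.1 FPKM with sh-Control and 9.44 with sh-CRNDE (change -0.09), which became 0.05 when the median change in its GC bin (1 of 20 groups of genes by transcript GC content) was subtracted. STAT3 was at 9.33 FPKM with sh-Control and 7.39 with sh-CRNDE (change -0.30). STAT2, which with IRF9 forms the interferon-activated complex, was lowest at 1.86 FPKM with sh-Control and 2.21 with sh-CRNDE (change 0.16). None of these genes was past 1.5-fold. STAT2 (chromosome 12, 56341597 to 56360203) and STAT6 (chromosome 12, 57095408 to 57132139) both lie on the minus strand. The level summed over the 5 STAT genes was 35.9 FPKM with sh-Control and 37.6 with sh-CRNDE.

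STAT5A and STAT5B changed places. STAT5A was at 8.64 FPKM with sh-Control and 4.60 with sh-CRNDE (change -0.78). A lower change was found in 5.16% of all genes. STAT5B was at 5.99 FPKM with sh-Control and 13.9 with sh-CRNDE (change 1.10), and was the only member past 2-fold, as were 3.43% of all genes in the same direction. By level, STAT5B went from the sixth of the members in sh-Control to the second in sh-CRNDE, behind TYK2, while STAT5A went from the fifth to the sixth.

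Set side by side, STAT5B had 0.693 times the FPKM of STAT5A in sh-Control and 3.03 times that in sh-CRNDE. Its share of the summed level went from 40.9% to 75.2%. The sum of both genes was 14.6 FPKM with sh-Control and 18.5 with sh-CRNDE (change 0.32), which was not past 1.5-fold. STAT5B gained 7.96 FPKM and STAT5A fell by 4.04 FPKM. Each value is scaled by transcript length (canonical transcripts of 3770 bases for STAT5A and 5079 for STAT5B), so the sum does not count fragments. The changes of the genes differed by 1.88 on the log2 scale, and over the alternatives of pseudocount, scaling and GC content this difference lay between 1.78 and 2.13. Whether fragments from the identical run or from the overlapping exons were split differently in the libraries was not tested, as the deposited values are per gene.

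The genes around the STAT5 pair were examined because STAT5B, STAT5A and STAT3 lie in a row. On the far side of STAT5B, GHDC was at 3.43 FPKM with sh-Control and 3.15 with sh-CRNDE (change -0.09). On the other side, STAT3 had the change of -0.30 given above, and beyond it ATP6V0A1, a subunit gene of the proton pump of acidic organelles, was at 3.09 and 2.67 FPKM, a change of -0.16. The closest of the listed genes on either side of the pair were therefore not past the threshold, and the opposite changes of STAT5A and STAT5B were not shared by them. A little farther from STAT5B, RAB5C, a GTPase gene of early endosomes, fell from 39.2 to 24.7 FPKM, a change of -0.65. ENSG00000267261, a gene without a symbol that overlaps RAB5C on the same strand, was at 0.149 and 3.24 FPKM, a change of 1.88 and the largest in the region. Both lie outside the rule for naming genes and were chosen after their values were seen, and ENSG00000267261 was above 0.5 FPKM in sh-CRNDE only.

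Next to the other members the picture was mixed. Beside JAK1, the adenylate kinase gene AK4 was lower with it, at 7.35 FPKM with sh-Control and 4.10 with sh-CRNDE (-0.71), but RAVER2 on the other side was at 4.70 and 6.15 FPKM (0.33). Beside JAK2, AK3 rose from 5.93 to 24.4 FPKM (1.87) while the adjacent RCL1 was at 9.20 and 8.46 FPKM (-0.11). NAB2, a repressor of EGR factors whose end overlaps 69 exonic bases of STAT6 on the opposite strand, fell from 5.58 to 2.85 FPKM (-0.77). The neighbours of TYK2, RAVER1, ICAM3, CDC37 and PDE4A, had changes between -0.46 (ICAM3) and 0.58 (PDE4A), and none was past the threshold. PAN2 and TIMELESS near STAT2, NEMP1 near STAT6 and DNAJC6 near JAK1 lay between -0.07 and 0.04.

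Of the receptors that feed the pathway, 18 of 38 genes in the list had a value, 1 of them was higher past 1.5-fold and none lower. Their median change was -0.02, beside -0.01 for all genes. Past the threshold were 17.2% of all genes, 8.38% higher and 8.83% lower. The gene that rose was IL13RA1, a chain of the interleukin-13 and type II interleukin-4 receptors that signal through JAK1, TYK2 and STAT6, from 3.39 FPKM with sh-Control to 7.81 with sh-CRNDE (change 1.01). IL4R, the other chain of that receptor, was at 3.10 and 3.18 FPKM (0.03).

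The listed chains of the GM-CSF, interleukin-3 and G-CSF receptors were not past the threshold. The GM-CSF receptor chain CSF2RA was at 1.65 FPKM with sh-Control and 1.90 with sh-CRNDE (0.13), and the shared beta chain CSF2RB at 1.25 and 1.75 FPKM (0.29). IL3RA, the interleukin-3 chain, was at 0.728 and 0.671 FPKM (-0.05), and CSF3R, the G-CSF receptor, at 1.64 and 1.13 FPKM (-0.31). All of these were low beside TYK2 and JAK1 on the same per-length scale.

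Interferon receptor genes had higher levels. IFNAR1 was at 8.63 FPKM with sh-Control and 10.5 with sh-CRNDE (0.25), and IFNAR2 at 3.15 and 2.74 FPKM (-0.15). IFNGR1 was at 11.7 and 9.42 FPKM (-0.28) and IFNGR2 at 18.8 and 16.9 FPKM (-0.14). IL6ST, which encodes gp130, was at 1.19 and 1.56 FPKM (0.23). The interferon chains thus lay above the GM-CSF, interleukin-3 and G-CSF chains in both libraries, and none was past the threshold.

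Cytokine ligand genes were scarce, with values for 4 of 33. Oncostatin M (OSM), itself a STAT5 target, was at 0.966 FPKM with sh-Control and 0.296 with sh-CRNDE (change -0.60). It was the only ligand past the threshold, beside 17.2% of all genes. No ligand had at least 1 FPKM in both libraries. Genes are listed only above 0.5 FPKM in 1 or both libraries. OSM, under 1 FPKM in both and named after its value was seen, was listed through sh-Control alone, so its direction follows from that filter. Subtracting the median change of its GC bin took it to -0.42, under the threshold. The median of the 4 ligands was -0.26.

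Inhibitors of the pathway had a value for 18 of the 20 genes in the list. Their median change was 0.05. Beside 17.2% of all genes past 1.5-fold, none of the inhibitors was higher past it and 1 was lower. That gene was CBL, a ubiquitin ligase that marks activated receptors and kinases for breakdown, which fell from 7.67 FPKM with sh-Control to 2.34 with sh-CRNDE (change -1.38). Its relative CBLB was at 0.525 and 0.431 FPKM (-0.09).

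Of the SOCS and CISH genes, several of which STATs switch on and which then block the receptors, CISH, SOCS1 and SOCS2 were low. CISH was at 0.983 FPKM with sh-Control and 0.711 with sh-CRNDE (-0.21), SOCS1 at 0.863 and 0.392 FPKM (-0.42), and SOCS2 at 0.332 and 0.638 FPKM (0.30). These 3 genes did not exceed 1 FPKM in either library. SOCS4 was at 4.33 and 4.73 FPKM (0.11), SOCS6 at 2.14 and 2.37 FPKM (0.10) and SOCS7 at 1.14 and 0.824 FPKM (-0.23). With a pseudocount of 0.1 FPKM, SOCS1 (-0.97) and SOCS2 (0.77) passed 1.5-fold in opposite directions. After the GC subtraction they were at -0.07 and 0.17. SOCS1 was above 0.5 FPKM in sh-Control only and SOCS2 in sh-CRNDE only, so their directions follow from the filter of the list.

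Phosphatases and SUMO ligases of the PIAS family, which restrain JAKs and STATs, stayed under the threshold, though PIAS3 (-0.69) and PTPN11 (0.60) passed it with a pseudocount of 0.1 FPKM. PTPN11, which encodes SHP2, came closest, at 24.6 FPKM with sh-Control and 37.3 with sh-CRNDE (change 0.583) against 0.585. Centred on the median change it was 0.589 and past it, and after the GC subtraction 0.47 and under it. PIAS3 was at -0.46 after the GC subtraction. PTPRC, which encodes CD45, was at 17.5 and 24.6 FPKM (0.47), PTPN6, which encodes SHP1, at 18.4 and 15.9 FPKM (-0.20), PTPN1 at 17.4 and 16.0 FPKM (-0.11) and PTPN2 at 4.10 and 4.78 FPKM (0.18). SH2B3, which encodes the JAK2 inhibitor LNK, was at 14.8 and 14.7 FPKM (-0.01). Of the PIAS genes, PIAS3, named for its binding to STAT3, was at 4.12 and 2.52 FPKM (-0.54), PIAS2 at 1.02 and 1.55 FPKM (0.34), PIAS1 at 9.48 and 11.5 FPKM (0.25) and PIAS4 at 3.30 and 3.62 FPKM (0.10).

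All 13 adaptors and cofactors had a value, with a median change of -0.11. EP300, the histone acetyltransferase that STATs recruit, was the only gene of the list past 1.5-fold, beside 17.2% of all genes. It was at 8.38 FPKM with sh-Control and 5.18 with sh-CRNDE (change -0.60). IRF9, the DNA-binding partner of STAT2, was near the floor of the table at 0.150 and 0.575 FPKM (0.45), a difference past 1.5-fold (1.43) with a pseudocount of 0.1 FPKM. It was above 0.5 FPKM in sh-CRNDE only, so its direction follows from the filter of the list. SHC1 lay just inside the threshold at 9.69 and 6.20 FPKM (-0.57), and was past it (-0.64) with a pseudocount of 0.1 FPKM. After the GC subtraction it was at -0.41.

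Genes known as STAT5 targets spread in both directions. Of 15 such genes, 12 had a value, 3 were higher past 1.5-fold and 2 lower, with a median of 0.18, beside 17.2% of all genes past the threshold (8.38% higher and 8.83% lower). Of the 2 lower genes, OSM was listed through sh-Control alone. With a floor of 1 FPKM in each library 4 of 8 were past the threshold, 3 higher and 1 lower, beside 14.1% of all genes with that floor. These counts rest on few genes and no replicate. CCND2, the cyclin D2 gene that STAT5 switches on in blood cells, rose from 9.64 FPKM with sh-Control to 69.0 with sh-CRNDE (change 2.72). The survival gene MCL1 (8.21 and 37.2 FPKM, 2.05) and the cyclin D1 gene CCND1 (2.98 and 8.56 FPKM, 1.26) rose as well, while MYC fell (43.8 and 26.9 FPKM, -0.68), as did OSM above. The STAT5-induced kinase genes PIM1 (1.53 and 1.82 FPKM, 0.16) and PIM2 (4.15 and 5.31 FPKM, 0.29) and the survival gene BCL2L1 (4.78 and 5.63 FPKM, 0.20) were not past the threshold. Nor was the cyclin D3 gene CCND3, which was lower (39.1 and 32.4 FPKM, -0.26). Of the 12 genes, 7 were higher and 5 lower, so the list as a whole did not move one way. The directions of SOCS2 (higher) and of SOCS1 and OSM (lower) follow from the filter of the list. Apart from these, MYC was lower, as were CCND3 and CISH, which were not past the threshold. Cyclins, MYC and MCL1 have many other regulators, and the part of STAT5 in these values was not tested.

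Of 15 STAT3 targets, 14 had a value, 3 were higher and 4 lower past 1.5-fold, beside 17.2% of all genes, and the median was -0.18. With a floor of 1 FPKM in each library 3 of 9 were past the threshold, beside 14.1% of all genes with that floor. Of the genes with a value, MYC, MCL1, CCND1, PIM1 and BCL2L1 stand in both lists. Among the genes particular to STAT3 that were past the threshold, none reached 1 FPKM in both libraries. JUNB is listed at 0 in sh-CRNDE and at 14.7 FPKM in sh-Control, CEBPD at 0 in sh-CRNDE and 0.571 FPKM in sh-Control, and CEBPB at 2.34 FPKM in sh-CRNDE and 0 in sh-Control. BCL3 was at 0.623 and 0.0685 FPKM (-0.60), and its change was -0.26 after the GC subtraction. CEBPD was likewise under the threshold there (-0.31). CEBPD and BCL3 were listed through sh-Control alone, so their directions follow from the filter, as with OSM. JUNB was likewise above 0.5 FPKM in sh-Control only and CEBPB in sh-CRNDE only. ICAM1 was at 2.49 and 1.55 FPKM (-0.45, and -0.65 with a pseudocount of 0.1 FPKM, past the threshold) and HIF1A at 16.0 and 12.8 FPKM (-0.30). After the GC subtraction ICAM1 was at -0.31. The anti-apoptotic gene BIRC5 was at 24.2 and 28.2 FPKM (0.22). STAT6 targets were measured for 5 of 13 genes, of which none was past 1.5-fold, beside 17.2% of all genes, and the median was -0.20.

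Interferon targets, which STAT2 and IRF9 switch on, were near the middle of all genes. Of 47 genes 27 had a value, 1 was higher and 3 were lower past 1.5-fold, and the median change was 0.02. These 4 of 27 genes stand beside 17.2% of all genes, a share near this background. BST2, which encodes the virus-tethering protein tetherin, rose from 12.5 FPKM with sh-Control to 28.4 with sh-CRNDE (change 1.12). DTX3L (4.62 and 2.25 FPKM, -0.79), IRF1 (2.47 and 1.01 FPKM, -0.79) and LGALS3BP (16.8 and 9.64 FPKM, -0.75) fell, and LGALS3BP was under the threshold (-0.52) after the GC subtraction. The other 23 genes lay between -0.55 (IFI6) and 0.33 (USP18). With a pseudocount of 0.1 FPKM IFI6 was past the threshold (-0.72), and after the GC subtraction it was at -0.41.

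Promoters were searched for the element TTCNNNGAA, which reads the same on both strands, in the 300 bases from 250 before to 50 after each RefSeq gene start (GRCh38.p14). It occurs in 7.66% of all 35116 promoters. None of the 15 promoters of the 8 listed members holds it in this window. Counted by gene, 9.38% of all genes in the promoter table and 8.07% of those with a value hold it in at least 1 promoter. Of the interferon targets with a value 20 genes matched the table and 6 hold it, and of the STAT5 targets 1 of 6. A match is a description of letters only. The promoter of CISH is shown because it holds 4 such elements, those of BST2 and IRF1 because they are interferon targets that moved in opposite directions and hold 2 elements and 1. The last choice was made after their values were seen, and capitals mark the elements.
CISH (chr3:50611725-50612024, minus strand): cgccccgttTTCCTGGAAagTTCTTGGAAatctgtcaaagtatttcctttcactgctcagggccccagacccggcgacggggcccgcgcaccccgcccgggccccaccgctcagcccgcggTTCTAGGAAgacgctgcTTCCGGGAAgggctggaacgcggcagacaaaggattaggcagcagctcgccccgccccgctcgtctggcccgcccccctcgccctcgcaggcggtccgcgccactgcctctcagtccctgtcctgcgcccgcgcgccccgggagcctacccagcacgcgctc
BST2 (chr19:17405581-17405880, minus strand): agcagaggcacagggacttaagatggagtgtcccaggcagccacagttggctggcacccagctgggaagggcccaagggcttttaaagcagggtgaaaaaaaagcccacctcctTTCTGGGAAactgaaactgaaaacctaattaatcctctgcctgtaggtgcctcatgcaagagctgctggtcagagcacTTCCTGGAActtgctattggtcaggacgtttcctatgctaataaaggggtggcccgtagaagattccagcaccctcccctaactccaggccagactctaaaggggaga
IRF1 (chr5:132490724-132491023, minus strand): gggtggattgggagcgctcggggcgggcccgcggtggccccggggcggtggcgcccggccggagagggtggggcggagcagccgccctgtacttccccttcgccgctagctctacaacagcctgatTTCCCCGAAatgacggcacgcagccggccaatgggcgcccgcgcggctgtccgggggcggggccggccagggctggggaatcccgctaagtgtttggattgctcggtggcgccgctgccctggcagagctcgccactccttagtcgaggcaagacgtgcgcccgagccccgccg

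The study also examined the miR-181 family, so the members were searched for its sites. The 4 mature miRNAs share a seed, bases 2 to 8, in capitals (RefSeq, GRCh38.p14):
hsa-miR-181a-5p: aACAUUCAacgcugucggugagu
hsa-miR-181b-5p: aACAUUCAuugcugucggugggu
hsa-miR-181c-5p: aACAUUCAaccugucggugagu
hsa-miR-181d-5p: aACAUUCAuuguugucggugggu

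A perfect match to the seed, TGAATGT, occurs in the 3′ untranslated region of the canonical transcript in 2 of the 8 listed members, once each. In 9962 listed protein-coding genes the share was 21.4%, and genes with the match have longer regions (median 2958 bases, against 953 without it). The sites are shown with the match in capitals:
JAK2 (chr9:5127551-5127557, plus strand): tctatttgtggTGAATGTgttttttaaat
STAT3 (chr17:42315556-42315562, minus strand): agagaaatgagTGAATGTgggtgatctgc

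JAK2, with a site, was at 1.62 and 2.51 FPKM (0.42) and STAT3, with a site, at 9.33 and 7.39 FPKM (-0.30), and neither was past 1.5-fold. The 3 members past the threshold, JAK1, STAT5A and STAT5B, hold no such match in this region. Over the 9962 protein-coding genes the median change was 0.05 with the match and -0.03 without it. Among the GC bins of the members the median change of all genes ran from -0.22 (bin of TYK2) to 0.20 (bin of JAK2). Whether miR-181 had a part in any of these values was not tested.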

How the data were processed

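The deposited values are FPKM per gene, made by the authors from TruSeq RNA libraries sequenced on an Illumina MiSeq. The submitters' processing notes name fastp 0.20.0, HISAT2 2.0.4, StringTie 1.2.3 and the genome GRCh38; the annotation release and strand setting are not given in the sources used here. The tables list genes that exceed 0.5 FPKM in 1 or both libraries. Samples were grouped by their titles. The change of a gene is log2(FPKM + 1) in sh-CRNDE less that in sh-Control, and a gene past 1.5-fold, a threshold the study used, was called. With 1 library per group, no test was run and depth is unknown.

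The members and the gene lists were chosen with earlier results of these data known. Named genes are the members, CRNDE, the neighbouring protein-coding genes (2 on each side), set receptors and inhibitors, and the 3 highest and 3 lowest genes past 1.5-fold of each list with at least 1 FPKM in both libraries. Genes of a list at 0 in 1 library (JUNB, CEBPB, CEBPD) are named apart. OSM, BCL3, IL4R, CBLB, PTPRC, IRF9, SHC1, PIM1, PIM2, BCL2L1, CCND3, BIRC5, HIF1A, ICAM1, IFI6, USP18, EPCAM, CEBPE, MPO, SRGN, RAB5C and ENSG00000267261 fall outside this rule and were picked with their values known. Positions, exons and transcripts come from GENCODE release 44 (11508 of 11619 identifiers matched), promoters and miRNAs from RefSeq. STAT5 coding sequences were aligned with Biopython 1.88. Alternatives were a pseudocount of 0.1 or 0.01 FPKM, centring, quantile normalization, rescaling without mitochondrial, ribosomal and small RNA genes, subtraction of the median change in 20 bins of GC content, 2-fold, and filters on low values. The change, the threshold calls, quantile normalization and the GC subtraction were tested on simulated data. That test planted its changes in genes of at least 5 FPKM, so it does not cover low values, and it did not cover the sequence searches. Python 3.11.15, numpy 2.4.6, pandas 2.3.3 and matplotlib 3.10.9 were used.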

Additional observations from a re-analysis of the deposited data

How the results depend on the processing

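STAT5A (-0.91 to -0.62), STAT5B (1.09 to 1.22) and JAK1 (-0.91 to -0.82) kept their direction and stayed past 1.5-fold under all 6 alternatives of pseudocount, scaling and GC content, and the summed STAT5 level stayed under it (0.31 to 0.34) under the 5 that could be run on a sum. The GC subtraction could not be run on the sum, since it has no single GC content. JAK2 passed the threshold with a pseudocount of 0.1 FPKM (0.60) or 0.01 FPKM (0.62), and was at 0.22 after the GC subtraction. STAT6 changed sign after the GC subtraction (0.05). At 2-fold, 1 member remained past the threshold in place of 3. Over all genes, 2000 were past 1.5-fold, 3301 with a pseudocount of 0.1 FPKM, 3481 with 0.01 FPKM, 774 at 2-fold, 1239 with a floor of 1 FPKM in each library and 1099 with a floor of 5 FPKM in either. Of 16 genes of the pathway lists past 1.5-fold, 12 stayed past it under all 6 alternatives, and 13 of the other 83 passed it in at least 1 of them. No paired analysis was possible because each group has 1 library. Without replicates or read counts, neither biological nor counting error is known.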
